A study of Mus musculus with 8 samples.

Results

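The globin genes examined were Hba-a1, which encodes an alpha chain of adult haemoglobin, and Hbb-bs and Hbb-bt, which encode its beta chains. They are 3 of the 2372 genes in a deposited table of medial prefrontal cortex (mPFC) RNA, picked by symbol after rows were matched to an annotation by position. The choice was made with the fold changes between genotypes in view, so those fold changes are given as a description and support nothing by themselves. RNA came from 8 adult male mice on a C57Bl/6J background, treated as naive, and each library was 1 mouse. All 8 carried Gpr158flox/flox, a Gpr158 gene flanked by recombination sites. The 4 CaKO mice (CamK2A-Cre;Gpr158flox/flox) also carried Cre under the CamK2A promoter, which is active in forebrain excitatory neurons, whereas the 4 control littermates had no Cre. The tissue was bulk mPFC, so the deletion reached only some of the cells that gave RNA.

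Haemoglobin is a tetramer of alpha and beta chains that carries oxygen in red blood cells. Its transcripts are made in erythroid precursors and persist in reticulocytes, the youngest circulating red cells, so blood held in dissected tissue brings globin RNA with it. Globin transcripts have also been described in neurons, astrocytes and oligodendrocytes, so globin RNA by itself does not name its cell of origin. The sources used here do not say whether blood was washed from the brains before dissection. In bulk tissue, fewer cells of a type and less RNA per cell cannot be told apart.

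Mice have a pair of nearly identical adult alpha-globin genes and, in this strain, a pair of nearly identical adult beta-globin genes. Hba-a1 (ENSMUSG00000069919.7, GRCm38) lies on the plus strand at chr11:32283511-32284465. Hbb-bs (ENSMUSG00000052305.6) and Hbb-bt (ENSMUSG00000073940.3) lie on the minus strand at chr7:103826534-103828096 and chr7:103812524-103813996. The main annotated transcript of each has 3 exons, and 0 other annotated genes overlap any of them. Hba-a2, the copy of Hba-a1, was not among the genes in the table.

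The coding sequences show how little separates the copies. Over 429 coding bases, stop codon included, Hba-a1 and Hba-a2 differ at 1 position, written C381T with the base of Hba-a1 first and counted from 1 at the A of the start codon. Over 444 coding bases Hbb-bs and Hbb-bt also differ at 1 position, C417T with the base of Hbb-bs first. In each pair the differing position leaves 0 differing residues after translation. The stretches below, coding bases 341 to 421 of the alpha genes and 364 to 444 of the beta genes in the GENCODE M21 transcripts, are shown because they hold that position, which is in capitals.
Hba-a1: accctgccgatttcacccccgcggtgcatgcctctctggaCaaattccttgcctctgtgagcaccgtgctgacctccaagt
Hba-a2: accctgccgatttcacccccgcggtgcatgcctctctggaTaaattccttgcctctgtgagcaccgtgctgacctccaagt
Hbb-bs: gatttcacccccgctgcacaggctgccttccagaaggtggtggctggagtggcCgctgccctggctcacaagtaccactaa
Hbb-bt: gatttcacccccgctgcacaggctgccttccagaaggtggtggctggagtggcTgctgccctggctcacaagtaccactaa

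Reads were 100 bases long, so every 100-base window of each main transcript was searched for in the transcripts of all other genes and in the sequence just before the starts of the globin genes. Of 600 windows of Hba-a1, 500 (83.3%) also occurred in Hba-a2 or in the sequence just before its start. Of the 455 windows of the main Hba-a2 transcript, 339 were shared with Hba-a1. The remaining 100 windows of Hba-a1 were those that contain the coding difference shown above in capitals. For Hbb-bs, 331 of 529 windows (62.6%) also occurred in Hbb-bt, and for Hbb-bt 331 of 604 (54.8%) also occurred in Hbb-bs. The beta genes thus have windows of their own at both ends of the transcript, and Hba-a1 has them around 1 coding base only. A read that matches only within shared windows cannot be assigned to 1 copy by its own sequence. The sources used here do not say how the counting treated such reads, so the values of these genes are uncertain with respect to their copies, that of Hba-a1 most.

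**Figure D1:**
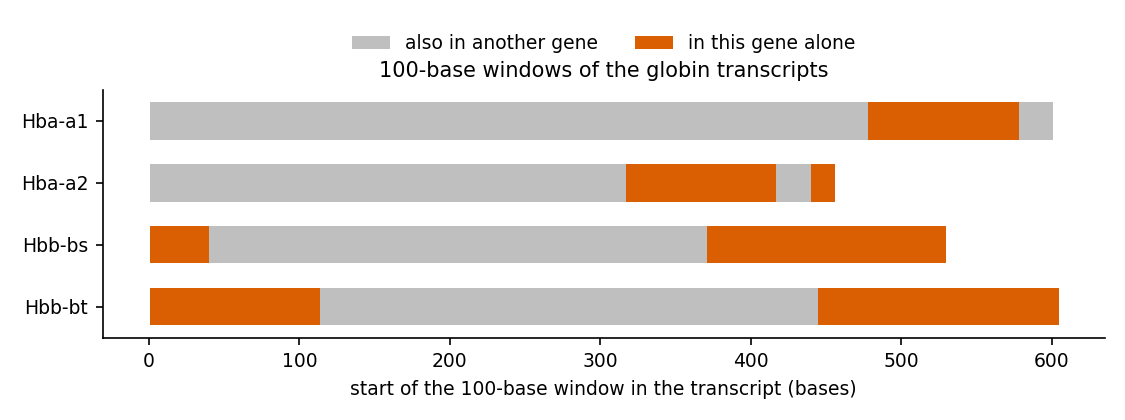
Position of 100-base windows along the main transcript of each globin gene, with the start of the window in bases on the x axis and 1 row per gene. Grey windows also occur in another gene or just before the start of another globin gene, and orange ones do not. Hba-a1 has 100 windows of its own in 1 block, and Hbb-bs (198) and Hbb-bt (273) have theirs at both ends.

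The regions before the start sites differ between the pairs, by a comparison that shifted each sequence without gaps. An insertion or deletion would lower its count of identical positions. In RefSeq promoter windows (GRCm38.p6, all 4 adult globin genes matched by symbol), the 250 bases before the start of Hba-a1 and of Hba-a2 were identical at 247 of 247 aligned positions, whereas those of Hbb-bs and Hbb-bt were identical at 127 of 249. Each of Hba-a1, Hba-a2, Hbb-bs and Hbb-bt held CACCC and CCAAT on at least 1 strand, letters found together in 16.9% of 32851 promoters of the same length (52.0% held CACCC and 33.8% CCAAT). Hba-a1, Hba-a2 and Hbb-bs held TATAAG, found in 6.65% of promoters, and Hbb-bt held TATAAA, found in 12.4%. Of the GATA-type letters searched, TGATAA (7.94% of promoters) was in both alpha genes and AGATAA (9.99%) in Hbb-bs. These are matches of letters on either strand and do not show that a factor binds.

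All 3 globin genes were detected in every CaKO library. The values are read counts that the authors divided by a factor for each library, and 1 read was worth between 0.9941 and 1.042. Over the genes of the table these libraries held 2832931 to 3183638 reads, and their total depth is unknown. The excitatory neuron gene Camk2a, which encodes a kinase abundant in forebrain pyramidal cells, stood at 37911 to 50901 normalised counts. Its level does not tell mPFC from other forebrain tissue. Gpr158 overlapped 0 rows of the table, and the genotype labels could not be checked against it.

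Hba-a1 stood at 181.9, 261.5, 239.6 and 281.4 normalised counts in CaKO replicates 1 to 4, a mean of 241.1 ± 43.0 (SD, n = 4). Replicate 1 was the lowest and replicate 4 the highest. The reads behind these values were 181 (95% exact Poisson interval 156 to 209) in replicate 1 and 270 (239 to 304) in replicate 4, so the lowest and highest libraries differed by more than counting error. These intervals cover counting error only.

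Hbb-bs, the more abundant beta gene, stood at 716.6, 751.5, 1032 and 521.0 normalised counts in replicates 1 to 4, a mean of 755.2 ± 210 (SD, n = 4). Here replicate 3 was the highest and replicate 4 the lowest, with 1038 (976 to 1103) and 500 (457 to 546) reads. Hbb-bt stood at 76.4, 87.2, 133.2 and 64.6, a mean of 90.3 ± 30.0 (SD, n = 4). Its highest and lowest libraries were again replicates 3 and 4, with 134 (112 to 159) and 62 (47.5 to 79.5) reads, so for both beta genes that difference exceeded counting error.

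**Figure D2:**
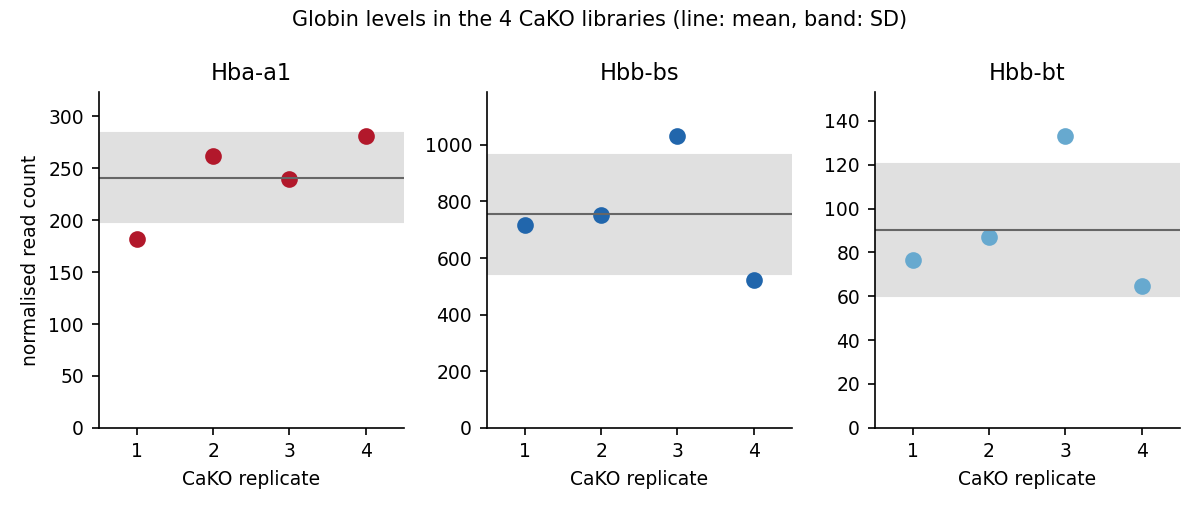
Normalised read counts (y axis, from 0, a separate scale for each gene) of Hba-a1, Hbb-bs and Hbb-bt in CaKO replicates 1 to 4 (x axis); the line is the mean and the band 1 SD. Hba-a1 was highest in replicate 4, the library in which Hbb-bs (521.0) and Hbb-bt (64.6) were lowest.

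Per kilobase of exon sequence the order of the levels was Hbb-bs, Hba-a1 and Hbb-bt. Their levels per kilobase were 983 ± 274, 297 ± 52.9 and 129 ± 42.7 normalised counts (SD, n = 4), which placed them at ranks 153, 581 and 1055 of the 2372 genes. The ranges of neighbours in this order did not overlap, with 678 to 1344 for Hbb-bs, 224 to 346 for Hba-a1 and 91.9 to 189 for Hbb-bt. Whether reads shared between copies enter these levels is not known here.

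Relative to controls, Hba-a1 fell, and Hbb-bs and Hbb-bt were listed as lower without passing the adjusted threshold. Hba-a2 has no value in this comparison, so the change of alpha globin as a whole is not known. Values of single control libraries were not used. The authors' deposited table gives Hba-a1 -1.18 on the log2 scale, which puts CaKO at 44.1% of control (adjusted p = 5.04e-12). This was the smallest p among the 2372 genes. For Hbb-bs the authors' deposited table gives -0.94, or 52.1% of control (p = 0.0120, adjusted p = 0.154). For Hbb-bt the value in the authors' deposited table is -1.01, or 49.5% of control (p = 0.0298, adjusted p = 0.246). Thus 1 of the 3 passed an adjusted p of 0.05 in the lower direction, where 1.97% of the 12938 genes in the adjustment did, and all 3 were lower at an unadjusted p below 0.05, where 8.68% were. Hba-a1 also passed at 0.01, where 0.696% of genes were lower. By the approximation described with the processing, Hbb-bt no longer had a p below 0.05 without replicate 1 or 4. The members were chosen from this contrast, so nothing is read from these counts.

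The sizes of the 3 decreases could not be separated from one another, while their errors were unequal. If the deposited p comes from a Wald test, the authors' deposited table implies a standard error of 0.15 on the log2 scale for Hba-a1, 0.37 for Hbb-bs and 0.47 for Hbb-bt. The 95% intervals were then -1.47 to -0.90 for Hba-a1, -1.68 to -0.21 for Hbb-bs and -1.93 to -0.10 for Hbb-bt, and the last 2 contain the fold change of Hba-a1. The point values of Hba-a1 and Hbb-bs differed by -0.24, and those of Hbb-bs and Hbb-bt by 0.07. Among the 2047 genes of the adjustment that are listed, all with a p below 0.05, the fold change of Hba-a1 was the 12th lowest, that of Hbb-bt the 23rd and that of Hbb-bs the 29th, so the 3 genes lay closer in fold change than in p.

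**Figure D3:**
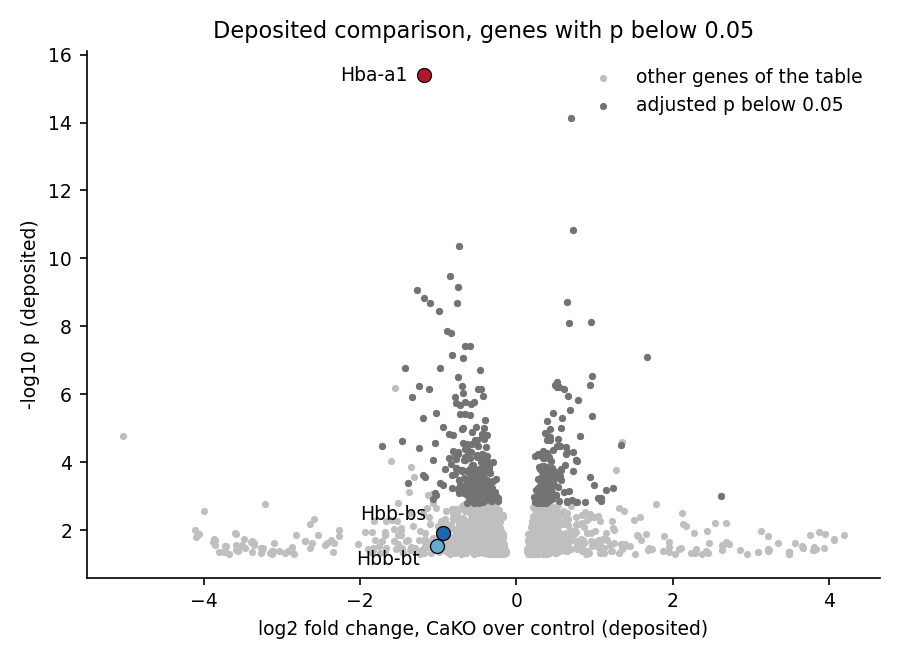
Deposited log2 fold change, CaKO over control (x axis), against -log10 of the deposited p (y axis) for the 2372 genes of the table, all with p below 0.05; dark points have an adjusted p below 0.05. Hba-a1 (-1.18) is the topmost point, and Hbb-bs (-0.94) and Hbb-bt (-1.01) have similar fold changes near the lower edge.

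The spread of the CaKO libraries themselves did not differ as much between the genes as these standard errors did. On the log2 scale the standard error of the CaKO mean was 0.14 for Hba-a1, 0.20 for Hbb-bs and 0.22 for Hbb-bt (n = 4). The standard error implied by the authors' deposited table was 1.06 times that of the CaKO mean for Hba-a1, against 1.86 times for Hbb-bs and 2.09 times for Hbb-bt. Equal spread in both groups would give 1.41, and the median over 1984 genes with at least 50 normalised counts was 1.498. Of these genes, 13.0% had a lower ratio than Hba-a1, and 70.1% and 77.5% had a lower ratio than Hbb-bs and Hbb-bt. The spread of the control libraries also enters the deposited p and was not analysed here.

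The beta genes varied more between CaKO mice than Hba-a1 did, set against genes of similar abundance in the table. Those genes all have a p below 0.05, a selection that favours small spread, so the percentages do not describe genes in general. The coefficient of variation was 27.9% for Hbb-bs, higher than that of 98.2% of the 782 genes whose mean was within 2-fold of its own. For Hbb-bt it was 33.2%, higher than 92.4% of 423 such genes. For Hba-a1 it was 17.8%, higher than 74.5% of 721 such genes, whose median was 12.8%. Each of the 3 genes thus lay above the median of its neighbours in abundance.

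The beta genes followed one another across the CaKO mice, and Hba-a1 did not follow them. Hbb-bs and Hbb-bt ranked the 4 libraries in the same order (3, 2, 1, 4 from high to low), with a root mean square difference of 0.10 between their log2 deviations. Hba-a1 ranked them 4, 2, 3, 1 and differed from Hbb-bs by 0.48 and from Hbb-bt by 0.47 on that measure. In replicate 4 Hba-a1 was 0.24 above its own log2 mean, whereas Hbb-bs and Hbb-bt lay below theirs, at -0.49 and -0.43. In replicate 3 Hbb-bs and Hbb-bt were 0.49 and 0.61 above their means, and Hba-a1 was at 0.01. With 4 libraries this is a description, and Hbb-bs and Hbb-bt share sequence, libraries and scaling.

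Because Hba-a1 and the beta genes did not move together, their ratio differed between CaKO mice. Hba-a2 has no value here, so Hba-a1 alone stands for the alpha genes. How reads shared between copies were counted is not known, so the size of the ratio is uncertain. The summed beta level per kilobase was 4.65, 3.42, 5.20 and 2.22 times that of Hba-a1 in replicates 1 to 4, a mean of 3.87 ± 1.33 (SD, n = 4). The highest ratio was 2.34 times the lowest. The ratio of Hbb-bs to Hbb-bt, by contrast, kept to 8.59, 7.89, 7.09 and 7.38 per kilobase, with the highest 1.21 times the lowest. From the CaKO means and the folds that the authors' deposited table lists, the implied beta to alpha ratio of controls was 3.19. The ratio taken in the same way from the CaKO means alone was 3.74. Both lay inside the range of the single CaKO libraries.

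**Figure D4:**
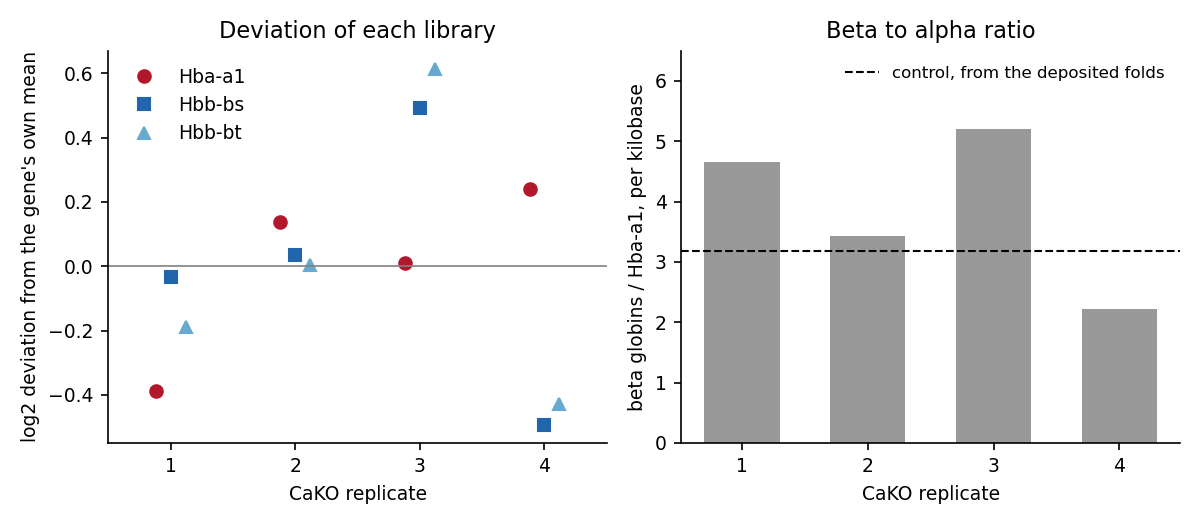
Left, log2 deviation of each CaKO library (x axis) from the gene's own mean (y axis) for Hba-a1, Hbb-bs and Hbb-bt; right, summed beta globins over Hba-a1 per kilobase (bars, y axis from 0) in each CaKO replicate, with the level implied for controls dashed (3.19). Hbb-bs and Hbb-bt are high in replicate 3 and low in replicate 4, Hba-a1 is high in replicate 4, and the ratio runs from 2.22 in replicate 4 to 5.20 in replicate 3.

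Summed over the 3 genes, globin counts were 974.9, 1100.1, 1404.7 and 867.0 in replicates 1 to 4, or 1087 ± 232 (SD, n = 4). They made up 0.0287% to 0.0499% of the reads over the table. Hba-a1 was 17.1% of the summed globin count in replicate 3 and 32.5% in replicate 4. Replicate 3, highest for both beta genes, was also the lowest of the 4 libraries for the excitatory neuron genes Camk2a (37911, others 47897 to 50901) and Nrgn (9047, others 13299 to 14513), which encodes a calmodulin-binding protein of dendritic spines. The oligodendrocyte gene Mbp (9274, others 11341 to 12805) and the astrocyte gene Atp1b2 (2999, others 4004 to 4598) were also lowest there. The oligodendrocyte gene Mag was instead highest there (847.0, others 741.4 to 843.0). The part of this library's composition in the globin values was not tested. Without replicate 3 the mean of Hbb-bs was 663.0 ± 124 and that of Hbb-bt 76.1 ± 11.3 (SD, n = 3).

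By the measure of likeness used above, each beta gene was the closest to the other among the 1984 genes with a mean of at least 50. After Hbb-bt, the genes closest to Hbb-bs were Tmem17, Zfp931, Churc1 and a gene that matched no symbol, at root mean square differences from 0.11 to 0.12. After Hbb-bs, those closest to Hbb-bt were Gm13443, Rpl17-ps3, Churc1 and Tada1, from 0.12 to 0.18. For Hba-a1 they were Gstp-ps, Gm4950, Grpel1, B9d2 and Coprs, from 0.04 to 0.06, and neither beta gene was among them. The authors' deposited table lists all 5 of those as higher in CaKO, from 0.36 for Grpel1 to 1.24 for Gm4950 on the log2 scale, where it lists Hba-a1 as lower. It also lists as higher the other 4 genes closest to Hbb-bs and 3 of the other 4 closest to Hbb-bt. For scale, of the 2047 genes listed within the adjustment, 924 were higher and 1123 lower, so nothing is read from these directions. With 4 libraries many genes share a profile by number alone, and a Pearson correlation in place of this measure kept 0 of the 15 names.

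Other genes of red blood cells gave no values that bear on the amount of blood. Of the 30 genes in the erythroid list, 27 were found in the annotation under the symbol used. Apart from the 3 globins, 0 were in the table, among them Alas2 (the first enzyme of haem synthesis in red cell precursors) and Slc4a1 (an anion exchanger of the red cell membrane). A gene outside the table had a p of 0.05 or more or was not in the adjustment, so its level is not known here, and whether red cell RNA as a whole differed was not tested. Of the other globins of the brain, Cygb (cytoglobin) was in the table and Ngb (neuroglobin) and Mb (myoglobin) were not. Cygb stood at 402.0, 484.9, 438.4 and 522.1 normalised counts in replicates 1 to 4. The authors' deposited table puts it at 0.29 on the log2 scale (adjusted p = 0.207), opposite in sign to the haemoglobin genes.

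Genes that make, clear or supply haem were mostly outside the table, as were most genes in the adjustment. At an unadjusted p below 0.05, 8.68% of the genes in the adjustment were listed as lower and 7.14% as higher. Of 9 genes of haem synthesis, the authors' deposited table holds 1, Ppox (protoporphyrinogen oxidase), at 0.46 on the log2 scale (adjusted p = 0.0981). It holds 0 of 8 genes that clear haem or haemoglobin. Of 15 genes of iron handling, 1 is in the authors' deposited table, the ferritin light chain gene Ftl1, at 0.33 (adjusted p = 0.0808), and 78.6% of its 100-base windows also occur in other genes. None of these passed the adjusted threshold, and those with a value had positive fold changes.

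Cells that travel in blood or line its vessels were compared through their markers. Of 16 markers of white blood cells and platelets, the authors' deposited table holds 1 within the adjustment, Coro1a, which is also made by other cells, at 0.20 (adjusted p = 0.260). The platelet gene Itga2b was listed at 0.84 there but outside the adjustment. Of 18 endothelial markers, the authors' deposited table lists 3 as lower (median -0.39 on the log2 scale) and 0 as higher, and Ly6c1 passed (adjusted p = 0.00481). Of all genes in the adjustment, 8.68% were lower before adjustment and 1.97% passed in that direction. The endothelial genes Flt1, a receptor for vascular growth factor, and Emcn, a surface sialomucin, did not pass at -0.19 and -0.49. The summed counts of the 3 endothelial genes ran from 1796 to 1876 over the CaKO libraries. Ly6c1 and Emcn were highest in replicate 1, where Flt1 was lowest. The part of vessel content in the globin values was not tested.

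Some markers of other cell types were also listed in the deposited comparison, in both directions. Of 17 meningeal and fibroblast markers, the authors' deposited table lists 3 as higher and 3 as lower (median 0.05 on the log2 scale). Ogn, Gjb2 and Ptgds rose and Fn1 fell at an adjusted p below 0.05. Over all genes in the adjustment, 1.27% rose and 1.97% fell, and 7.14% were higher and 8.68% lower before adjustment. Of 13 mural cell markers 0 had a value, and of 14 choroid plexus and ependymal markers 1 did, Enpp2, at -0.28 in the authors' deposited table. Among 18 microglial markers 1 was higher and 2 lower in the authors' deposited table (median -0.25), and Fcrls, a microglial surface receptor, fell by 0.53 (adjusted p = 0.0163).

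All 8 oligodendrocyte markers were lower in the authors' deposited table (median -0.47, 4 passing), as were 4 of 8 astrocyte markers (median -0.35, 2 passing) and 4 of 8 excitatory neuron markers (median -0.33, 1 passing), and the remaining astrocyte and neuron markers have no value here. Beside these counts, 8.68% of all genes in the adjustment were lower at an unadjusted p below 0.05 and 1.97% passed in that direction. The median of all 2047 genes listed within the adjustment was -0.22. Oligodendrocytes and astrocytes are among the cells in which globin RNA has been described, and the part of these cells in the globin values was not tested.

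**Figure D5:**
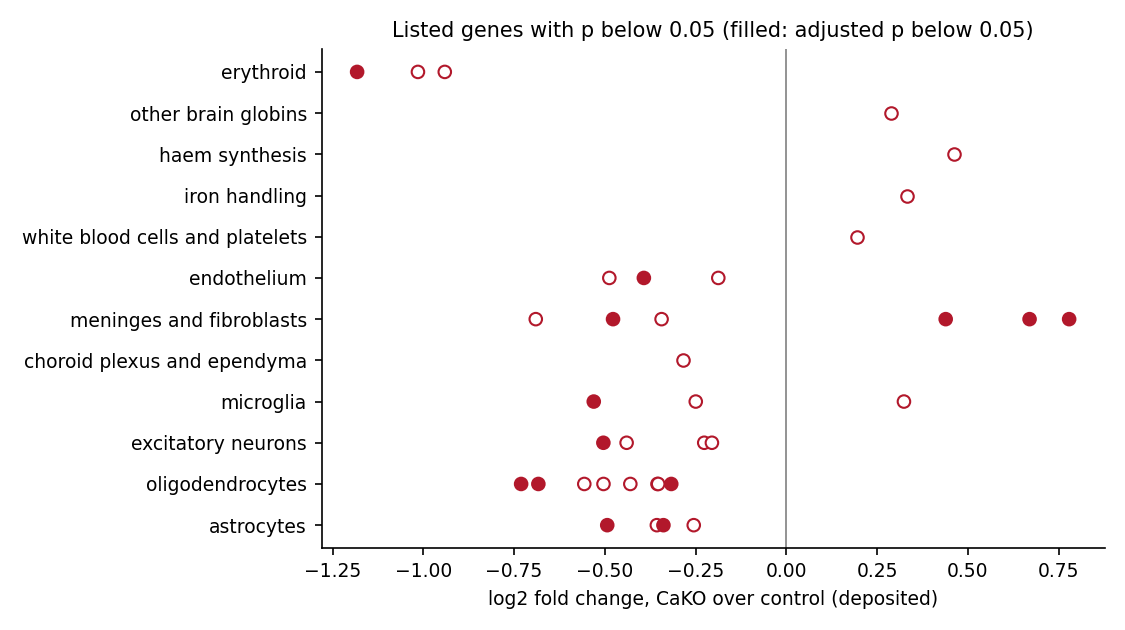
Deposited log2 fold change, CaKO over control (x axis), of listed genes with p below 0.05 within the adjustment, 1 row per list and 1 point per gene; filled points have an adjusted p below 0.05. The erythroid row holds the 3 globins alone, from -1.18 to -0.94, and every other listed gene lies between -0.73 and 0.78.

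Neighbouring genes on the chromosomes gave 1 further value. For scale, 8.68% of all genes in the adjustment were listed as lower and 7.14% as higher at an unadjusted p below 0.05. Within 500 kb of the alpha-globin cluster, which spans chr11:32276400-32300873, 1 of 13 other protein-coding genes was in the table. It was Rhbdf1, an inactive rhomboid protease that lies 54.1 kb away, with 123.6, 125.2, 78.5 and 158.4 normalised counts in replicates 1 to 4. The authors' deposited table puts it at -0.53 on the log2 scale (adjusted p = 0.129). Within 500 kb of the beta-globin cluster, chr7:103812524-103853216, 0 of 63 were in the table, and 51 of them are olfactory receptor genes. Of the globin genes in the clusters, 1 of 5 alpha-type and 2 of 7 beta-type genes were in the table.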

How the data were processed

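RNA of 4 CaKO and 4 control mPFC samples was sequenced from poly-A-selected libraries, per the labels' protocols. Per the submitters' processing notes, TopHat2 2.0.12, HTSeq 0.6.1 and DESeq2 1.30.1 were used with GRCm38. The table is named for FPKM, but its CaKO values are a signal, as deposited by the authors, of read counts scaled by a factor for each library: 100.0% of values were whole multiples of 1 step within 0.01. The log2 fold changes (CaKO over control), p-values and adjusted p-values are the authors', as deposited. The adjusted ones follow Benjamini-Hochberg over 12938 genes (largest relative difference 0.005); 325 genes listed at 1 were treated as outside the adjustment. Which tool made the p-values is not given in the sources used here.

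Of the 2372 rows, 2266 matched GENCODE M21 by exact position and 89 by 80% mutual overlap. Python 3.11.15, pandas 2.3.3, NumPy 2.4.6 and SciPy 1.17.1 were used. Means and SDs are over 4 libraries. The planned count tests and paired fits were not run, because no control library's values were used. Leaving out a CaKO library recomputed the fold from the remaining 3, with the control level fixed and the standard error widened. The calculations were tested on simulated data. "Rose" and "fell" mean an adjusted p below 0.05. Named genes were the members, listed genes with the largest fold changes, the 5 genes most like each member (mean of at least 50) and neighbours within 500 kb. Members, lists and rules were chosen with earlier results of these data known.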

Additional observations from a re-analysis of the deposited data

Results flagged for a closer look

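Of 40 sets of 4 CaKO values examined (the globins, their sum and ratios, and the listed genes), 1 had a library far from the rest. Cnp, a myelin enzyme gene among the oligodendrocyte markers, stood at 2560 normalised counts in replicate 1, against 2264 to 2285 in the other libraries. Its gap to the nearest library was 0.929 of the whole range, above Dixon's critical value for 4 samples. Chance flags about 1 in 20 such sets. None of the globin genes, their sum or their ratios was set apart in this way.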

How the results depend on the processing

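No paired analysis was possible because no values of single control libraries were used, so replicate numbers shared by the groups could not be matched. For the same reason leaving out control libraries and count tests with other tools were not run. With an adjusted p threshold of 0.01, 1 globin gene still passed, and so it did without each CaKO library (1 to 1). Leaving out a library kept the control level and did not estimate the spread again, so this count is no test of stability. Without each CaKO library the log2 fold change ran from -1.26 to -1.07 for Hba-a1, from -1.13 to -0.80 for Hbb-bs and from -1.26 to -0.88 for Hbb-bt. The count of listed erythroid genes was 3 at an unadjusted p below 0.05 and 1 at an adjusted p below 0.05, since the threshold is stricter. All 3 kept their direction with each CaKO library left out. By the approximated p, an alternative chosen after seeing the data, 3 stayed below 0.05 without replicate 2 or 3 and 2 without replicate 1 or 4, where Hbb-bt did not. The summed globin level ran from 980.7 to 1160 with 1 library left out. The ratio of the beta genes to Hba-a1 then ran from 3.43 to 4.42. The ratio was 3.63 without a length correction and 3.99 with the main transcript's length, an alternative chosen after seeing the data. Of the 15 genes most like the globins, 0 remained with a Pearson correlation and 11 without a filter on low values. Depth limits Hbb-bt most, with 62 to 134 reads per library.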
